A study of Homo sapiens with 6 samples.

Results

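The genes described here encode 7 zinc finger transcription factors of related families: the early growth response factor EGR1, the Krüppel-like factors KLF4, KLF6, KLF10, KLF11 and KLF16, and the specificity protein SP8. They were taken by gene symbol from the authors' deposited table of 497 probe sets, where each of the 7 had 1 probe set, out of 22119 probe sets measured, of which the 303 listed as higher make up 1.37%. That table lists probe sets because they differed between the groups compared below, so the differences of the 7 genes are described here and not tested. The cells were HaCaT, an immortalised line of human skin keratinocytes, grown without serum or added calcium. Those of the M1 group (n = 3) had M1 protein, which Streptococcus pyogenes carries on its surface and needs for virulence, at 5 µg/ml in the medium for 6 h, and those of the control group (n = 3) went without it. Of 12 samples whose RNA integrity was checked, these 6 were hybridised to Affymetrix Human 2.0 ST arrays. They are called biological replicates, but whether the cultures were grown separately is not stated in the sources used here, so the spread between them may be partly technical.

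KLF and SP factors bind GC-rich and CACCC-type sequences through a row of zinc fingers at the C-terminal end of the protein, and EGR factors bind a related GC-rich site through zinc fingers of the same C2H2 type. EGR1 is an immediate early gene: it is switched on without new protein synthesis when growth factors, cytokines or stress activate MAP kinases, largely through serum response factor, which sits on CArG boxes of the promoter together with ternary complex factors. In the epidermis, KLF4 is known from mouse knockouts for its part in forming the skin barrier.

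The stretches upstream of the starts of these genes are shown first. RefSeq windows on GRCh38.p14 were at hand for 6 of the genes, 7 windows in all because KLF11 has a pair of annotated starts. For KLF10 no window was at hand. The 250 bases before each start were searched on both strands for 7 motifs. EGR1 was chosen for printing because it had the only CArG boxes, and KLF6, SP8 and KLF4 because they held the EGR site GCGNGGGCG. In these 4 sequences, which end at the base before the start, capitals mark CArG boxes and EGR sites, read on either strand. They lie at chr5:138465229-138465478 on the plus strand for EGR1, and on the minus strand at chr10:3785210-3785459 for KLF6, chr7:20786887-20787136 for SP8 and chr9:107489770-107490019 for KLF4.
EGR1: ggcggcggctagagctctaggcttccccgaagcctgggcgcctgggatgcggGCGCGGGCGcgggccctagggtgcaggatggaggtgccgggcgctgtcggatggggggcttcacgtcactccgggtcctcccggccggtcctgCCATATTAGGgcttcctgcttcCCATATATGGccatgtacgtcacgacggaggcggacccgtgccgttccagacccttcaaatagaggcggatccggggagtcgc
KLF6: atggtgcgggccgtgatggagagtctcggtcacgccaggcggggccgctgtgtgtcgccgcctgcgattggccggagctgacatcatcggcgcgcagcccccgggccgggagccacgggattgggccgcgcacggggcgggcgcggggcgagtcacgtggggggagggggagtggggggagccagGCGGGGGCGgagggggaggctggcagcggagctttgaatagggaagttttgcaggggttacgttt
SP8: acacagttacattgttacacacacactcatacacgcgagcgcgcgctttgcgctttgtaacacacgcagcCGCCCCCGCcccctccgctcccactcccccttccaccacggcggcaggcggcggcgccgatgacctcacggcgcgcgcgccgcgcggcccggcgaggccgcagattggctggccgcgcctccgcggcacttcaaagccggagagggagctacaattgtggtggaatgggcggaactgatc
KLF4: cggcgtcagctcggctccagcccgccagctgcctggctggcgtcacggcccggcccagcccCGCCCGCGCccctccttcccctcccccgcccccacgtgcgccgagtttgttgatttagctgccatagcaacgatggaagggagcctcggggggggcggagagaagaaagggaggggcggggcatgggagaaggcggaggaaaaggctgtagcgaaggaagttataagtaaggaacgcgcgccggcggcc

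Shorter stretches of 30 bases are given for KLF11, where capitals mark the cyclic AMP response element TGACGTCA (chr2:10044034-10044063, plus strand), and for KLF16, where they mark the EGR site nearer to the start (chr19:1863620-1863649, minus strand).
KLF11: atttccagccaTGACGTCAccccggtcctg
KLF16: gggcaggccgaGCGCGGGCGtcggcggcgg

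In the EGR1 window the CArG boxes lay at positions -105 to -96 and -83 to -74 from the start, and no other window of the 7 held one. CArG boxes were present in 1.16% of the 35116 RefSeq windows of the same length. An EGR site was found in 5 of the 7 windows, against 8.41% of all windows. These belonged to 5 of the 6 genes, EGR1 itself at -198 to -190, SP8 at -180 to -172, KLF4 at -189 to -181, KLF6 at -65 to -57 and KLF16 at -114 to -106 and -59 to -51. The GC box GGGCGG, the classical SP and KLF site, was in 6 of the 7 windows and in 42.6% of all windows. The 6 were those of SP8, KLF4, KLF6, KLF11 and KLF16, and not that of EGR1. The letters of both motifs can overlap, and an EGR site overlapped a GC box in 4 of the 5 genes that had one. The windows of the 6 genes were 68.0% to 86.4% G and C, against a median of 58.0% over all windows, and the part of this base composition in the matches was not tested. The element TGACGTCA, bound by CREB and ATF factors, was in the second KLF11 window at -176 to -169 and in 1.65% of all windows. Only full matches to its letters were counted, so near matches and shorter forms in other windows were left out. The AP-1 site TGANTCA, the NF-kappaB site and the TATA box TATAAA matched none of the 7 windows, against 6.57%, 9.96% and 10.7% of all windows. At such shares the lack of a match in 7 windows says little, and sites outside the windows were not searched.

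**Figure D1:**
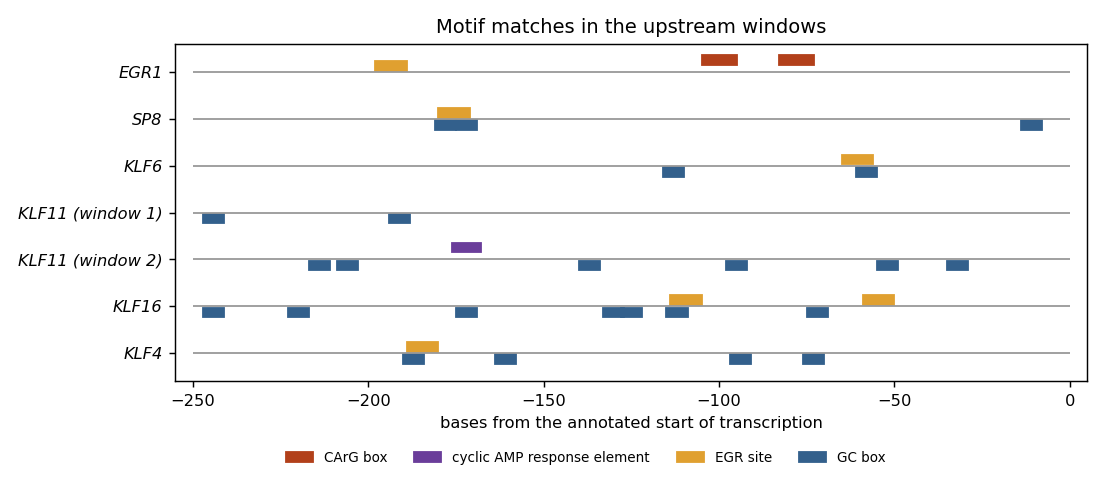
Motif matches in the 250 bases upstream of the annotated starts of 6 genes, in bases from the start; each grey line is 1 window and each block 1 match on either strand. EGR1 has the CArG boxes at -105 and -83, the second KLF11 window has the cyclic AMP response element at -176, and GC boxes appear in every window but that of EGR1.

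The comparison asked how 6 h with M1 protein differed from no M1 protein. All 7 genes were higher with M1 protein, from 1.68-fold for KLF4 to 4.83-fold for EGR1, and in each of them every M1 array lay above every control array. The median difference of the 7 was 1.61 on the log2 scale, beside 0.0032 over all 22119 probe sets and 1.27 over those that the authors listed as higher. The limma fit over all probe sets (Benjamini-Hochberg adjusted p under 0.05) called all 7 as higher, where it called 11.6% of all probe sets as higher, and every M1 array lay above every control array in 18.6% of all probe sets. The members were chosen on the same contrast, so neither count says more about them than their presence in the table.

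EGR1, a transcription factor that growth and injury signals induce within minutes, showed the largest difference. Its log2 RMA signals were 13.04, 13.03 and 12.86 on the M1 arrays, against 10.80, 10.64 and 10.67 on the control arrays. The groups lay far apart, and the M1 array of replicate 3 was the lowest of its group. The means were 12.98 ± 0.10 with M1 protein and 10.70 ± 0.08 in control (SD, n = 3 each). The log2 difference was 2.27 ± 0.07 (SE) or 4.83-fold, which ranked 48 among the rises of all probe sets. Cells were sampled at 6 h only, so when EGR1 or any other gene began to rise was not measured.

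SP8, a buttonhead-type SP factor known for limb outgrowth and patterning in mouse embryos, came next. It had signals of 8.94, 8.96 and 8.96 on the M1 arrays, against 6.82, 6.90 and 6.75 on the control arrays. Control arrays thus varied more than M1 arrays, with an SD of 0.01 with M1 protein and 0.08 in control (n = 3 each). SP8 was the 1 gene of the 7 whose control signals lay below the median of their arrays (6.99 to 7.01), while its M1 signals lay above that of theirs (6.93 to 6.96). The log2 difference was 2.13 ± 0.04 (SE), or 4.39-fold.

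KLF6, a broadly expressed activator that responds to wounding and cytokines, gave 12.29, 12.22 and 12.30 on the M1 arrays, against 10.52, 10.67 and 10.60 on the control arrays. Its log2 difference was 1.67 ± 0.05 (SE), or 3.19-fold. KLF6 was the 1 gene of the 7 for which M1 replicate 3 was the highest M1 array.

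KLF10 and KLF11 are the TGF-beta inducible early genes, repressors of cell growth that recruit the corepressor SIN3A. KLF11 gave 10.79, 10.80 and 10.72 on the M1 arrays, against 9.03, 9.21 and 9.22 on the control arrays. Control replicate 1 was the low array here, and without it the log2 difference was 1.55, against 1.61 ± 0.07 (SE, 3.06-fold) with all arrays. KLF10 gave 11.36, 11.44 and 11.30 on the M1 arrays, against 10.29, 10.28 and 10.24 on the control arrays. Its log2 difference was 1.10 ± 0.04 (SE), or 2.14-fold, and here the M1 arrays varied more, with a range of 0.14 with M1 protein and 0.05 in control. The ranges over the 9 pairs of an M1 and a control array, 1.499 to 1.76 for KLF11 and 1.01 to 1.20 for KLF10, did not overlap.

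KLF16, a factor first described as a regulator of dopamine receptor genes, gave 10.50 on each of the M1 arrays, against 9.69, 9.74 and 9.73 on the control arrays. The M1 arrays differed by only 0.003 on the log2 scale, and the pooled SD of KLF16 within groups, 0.015, was lower than that of all but 0.448% of the probe sets. Its log2 difference was 0.78 ± 0.01 (SE), or 1.72-fold.

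KLF4, which takes part in barrier formation and restrains cell division in epithelia, had the smallest difference. It gave 9.51, 9.45 and 9.40 on the M1 arrays, against 8.68, 8.71 and 8.74 on the control arrays. The lowest M1 array was still 0.67 above the highest control array. The log2 difference was 0.75 ± 0.03 (SE), or 1.68-fold. In the authors' deposited table KLF4 had a SAM score, a group difference divided by its spread plus a constant, of 1.06. That was place 10 from the lowest of the 303 listed as higher, of which the lowest was PLAU at 1.03 in the authors' deposited table.

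**Figure D2:**
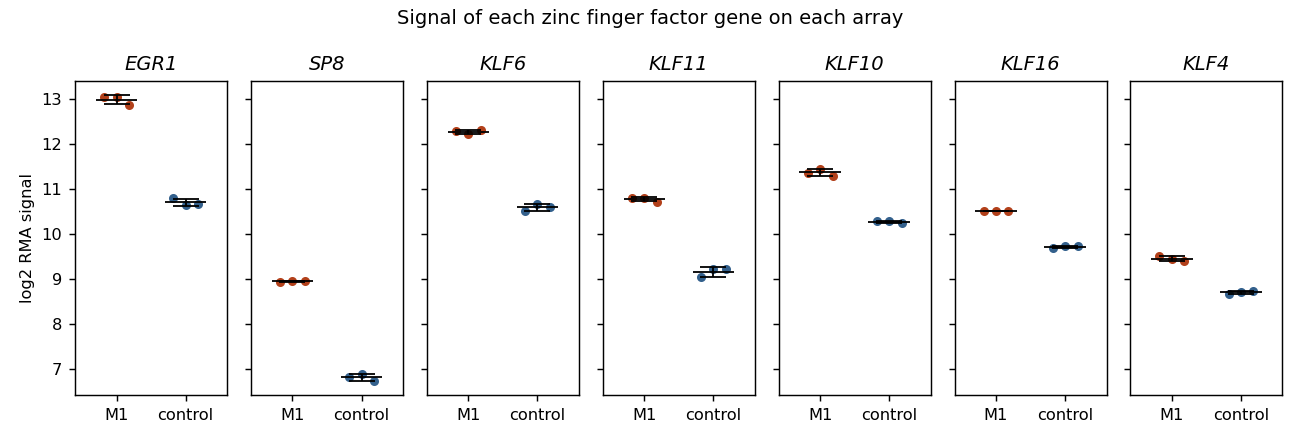
Log2 RMA signal of the 7 genes on each array, M1 left and control right; points are arrays, lines the mean and bars 1 SD (n = 3). In every gene the M1 points lie above the control points, by the most in EGR1 (2.27) and the least in KLF4 (0.75).

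By size of difference the order was EGR1, SP8, KLF6, KLF11, KLF10, KLF16 and KLF4. Neighbours formed 3 pairs whose differences overlapped over the 9 array pairs: EGR1 (2.06 to 2.40) with SP8 (2.05 to 2.21), KLF6 (1.55 to 1.78) with KLF11 (1.499 to 1.76), and KLF16 (0.76 to 0.81) with KLF4 (0.67 to 0.83). KLF10 overlapped neither neighbour. After quantile normalization of the signals each of the 3 pairs changed places, with SP8 at 2.20 and EGR1 at 2.18, KLF11 at 1.64 and KLF6 at 1.598, and KLF4 at 0.83 and KLF16 at 0.79. Since probe sets differ in how far they compress a change, this order is one of measured signals and need not be that of transcript numbers.

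**Figure D3:**
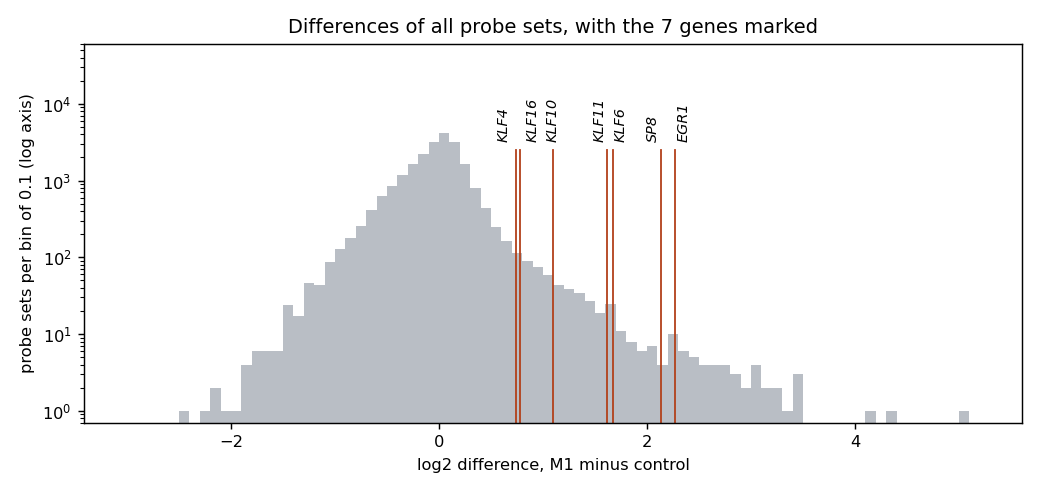
Number of probe sets by log2 difference, M1 minus control, in bins of 0.1 on a log axis, over all 22119 probe sets; red lines mark the 7 genes. EGR1 and SP8 lie at 2.27 and 2.13 in the thin right tail, and KLF4 and KLF16 at 0.75 and 0.78 near the lower limit of the authors' list.

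Within groups the 7 genes did not vary as a block. M1 replicate 3 was the lowest M1 array for 5 of them, EGR1, KLF11, KLF10, KLF16 and KLF4, and for 30.3% of all probe sets. In those 5 the deviation from the M1 mean ran from -0.12 for EGR1 to -0.0015 for KLF16. Control replicate 1 was the lowest control array for KLF6, KLF11, KLF16 and KLF4, and for 37.5% of all probe sets, but it was the highest for EGR1 and KLF10. None of these deviations came near the difference between groups.

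**Figure D4:**
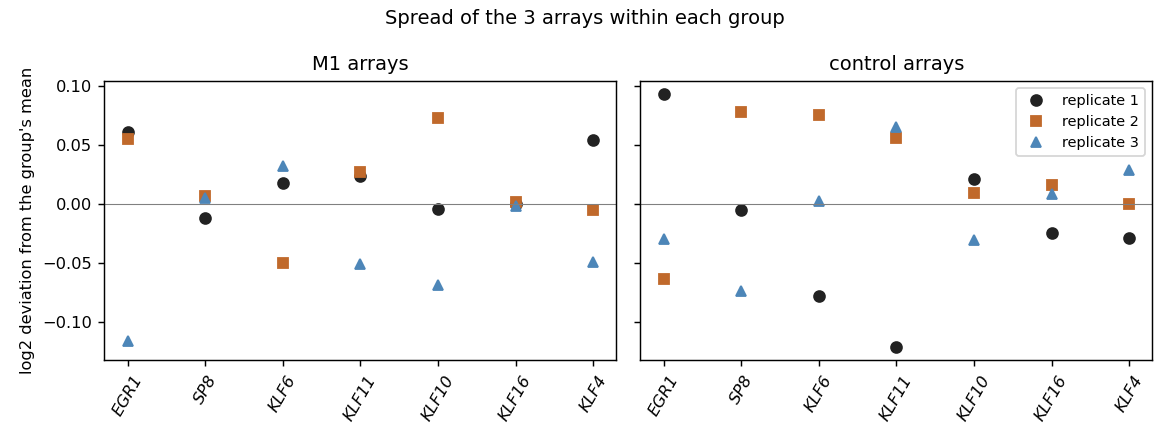
Deviation of each array from the mean of its group, in log2 units, for the 7 genes, with M1 arrays left and control arrays right. M1 replicate 3 lies lowest in 5 genes, and the control arrays of KLF11 are set apart by replicate 1 at -0.12.

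The profiles over the 6 arrays, each taken relative to the gene's own control mean, were compared with those of the other listed genes by root mean square distance in log2 units. Closest to EGR1 were ZFP36, which encodes a protein that destabilises cytokine mRNAs, at 0.081 and the Wnt receptor gene FZD8 at 0.086. Closest to SP8 were FST, encoding the activin antagonist follistatin, at 0.046 and AVPI1 at 0.054. KLF6 lay nearest to the deubiquitinase gene YOD1 at 0.029 and the transcription factor gene ETS1 at 0.047. KLF11 lay nearest to the small GTPase gene RND3 at 0.043 and the repressor gene NFIL3 at 0.047. Both had their lowest control signal on replicate 1, as KLF11 did, but the distance that picked them includes that array. Control replicate 1 was also the lowest control array for 37.5% of all probe sets. Near to KLF10 lay CHMP1B, of the ESCRT-III membrane machinery, at 0.043. Closest to KLF16 were NR3C1, the glucocorticoid receptor gene, at 0.017 and MIDN at 0.021. Closest to KLF4 was the Ras-like gene RIT1 at 0.029. Among the 7 themselves the closest were KLF16 and KLF4 at 0.040, KLF6 and KLF11 at 0.070, and EGR1 and SP8 at 0.136. KLF10 and KLF11, related in sequence and both TGF-beta inducible, were 0.374 apart. The distance is set mostly by the size of the difference between groups, on which all of these genes were listed.

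Of 32 genes of the KLF, SP, EGR and WT1 families, these 7 were in the authors' table, all higher and 0 lower. The table as a whole held 303 higher and 194 lower probe sets. The other members, such as EGR2, EGR3, KLF2, KLF5, SP1 and SP3, carry no name among the probe sets and were not analysed here. The table annotated all 7 as binding DNA and zinc ions. Of its other probe sets annotated with zinc ion binding, 37 were higher and 34 lower, and of those annotated as sequence-specific DNA-binding transcription factors, 48 were higher and 4 lower. The ZNF and ZFP genes, which hold many of the other C2H2 zinc finger proteins, numbered 27 in the table, 6 higher and 21 lower. They were counted by symbol and not by type of zinc finger. The 6 thus include ZFP36, named above as acting on cytokine mRNAs.

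Genes that act with these factors were looked up in lists of known partners and targets. Of 18 genes often named as EGR1 or KLF6 targets, the table held 5, each of them higher. The whole table held 497 of the 22119 probe sets, 303 higher and 194 lower. The lists were chosen with earlier results of these data known, so such counts are descriptions and not tests. GADD45B, a stress sensor gene, had signals of 10.98, 10.87 and 10.94 on the M1 arrays, against 8.56, 8.52 and 8.45 on the control arrays, a log2 difference of 2.42 ± 0.04 (SE). TNFRSF10B, a death receptor gene, was higher by 1.03 ± 0.06 (SE) and the cell cycle inhibitor gene CDKN1A by 0.92 ± 0.07 (SE). The urokinase gene PLAU was higher by 0.77 ± 0.08 (SE). Other factors also act on these genes, and the arrays do not show which did.

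Of 20 other immediate early genes, mostly of transcription factors, the table held 15. Each of them was higher, beside 303 higher and 194 lower in the whole table. Their median log2 difference was 1.80, with a range of 0.85 to 3.08. The median of the 7 zinc finger factor genes was 1.61. EGR1 at 2.27 lay between FOS, a subunit of AP-1, at 2.53 ± 0.12 (SE) and JUN, its partner, at 2.07 ± 0.06 (SE). The list was led by the orphan receptor genes NR4A2 at 3.08 ± 0.11 (SE) and NR4A1 at 3.01 ± 0.10 (SE), with FOSB, a relative of FOS, at 2.87 ± 0.05 (SE) and the stress-induced factor gene ATF3 at 2.59 ± 0.06 (SE). Of 14 cofactors and partners of the family, among them NAB1, NAB2 and SIN3A, the table held 0. It also held 0 of 7 genes of serum response factor, its cofactors and CREB1, and 0 of 13 genes of TGF-beta ligands, receptors and SMADs. Of 19 genes of epidermal differentiation and barrier, the setting in which KLF4 is best known, it held the tight junction gene CLDN1 alone, at 12.64, 12.63 and 12.51 on the M1 arrays, against 11.67, 11.76 and 11.68 on the control arrays. A gene missing from the table may still have changed, since the table holds only probe sets past the authors' limits. These are 497 of 22119, so a count of 0 from a short list says little.

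**Figure D5:**
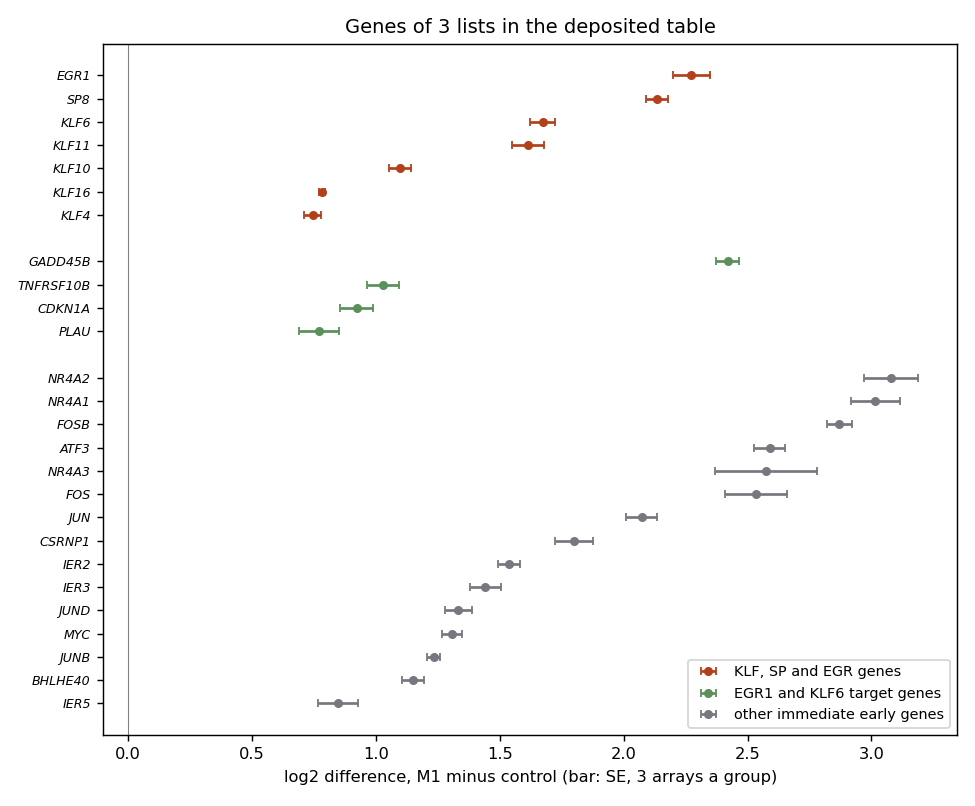
Log2 difference, M1 minus control, of genes in the authors' table from 3 lists, with bars of 1 SE (3 arrays a group). The KLF, SP and EGR genes run from 0.75 to 2.27, the 4 EGR1 and KLF6 target genes shown from 0.77 to 2.42 and the 15 other immediate early genes from 0.85 to 3.08.

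Of the keratinocyte markers, 1 of 9 was named in the table, KRT17, at 9.33, 9.25 and 9.10 on the M1 arrays, against 8.21, 8.11 and 8.05 on the control arrays. Of 6 fibroblast, 5 leukocyte, 4 endothelial and 4 melanocyte markers the table named 0, so the cell type rests on the labels. The array medians were 6.93 to 6.96 in the M1 group and 6.99 to 7.01 in the control group, and with each array centred on its median the difference between the group means was larger by 0.06 for each of the 7 genes.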

How the data were processed

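RNA of 3 M1 and 3 control samples of HaCaT cells was measured on arrays, with groups and replicate numbers from the sample titles. The authors deposited log2 signals for each probe set on each array, and the submitters' processing notes name RMA and Affymetrix Expression Console, version 1.1.2. RMA corrects background, normalises between arrays and summarises probes, which compresses dim signals. How the 22119 probe sets were picked is not stated in the labels or headers. The authors' deposited table of 497 probe sets adds gene names, a SAM score, a fold change as a ratio of means of unlogged signals, and a t-test p-value, per the file headers. Its coordinates name no build and were not used. The signals in both files were identical.

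Differences are M1 minus control means of log2 signals, with the SE from both SDs. For the background, limma 3.58.1 in R 4.3.3 (lmFit, eBayes) was fitted over all probe sets, two-sided, with Benjamini-Hochberg adjustment and a threshold of 0.05, and was tested on simulated data. The members and lists were chosen with earlier results of these data known. Named were the 7 genes, the 2 closest profiles of each and up to 4 genes of each list; PLAU, FOS, JUN and KRT17 were named in addition after their values were seen, and the motifs and array patterns were also chosen then. A few results that this rule gave are not reported here. RefSeq matched 7 of 7 accessions. The number of arrays limits the precision. Alternatives tried were a block for the replicate number, median centring, quantile normalization, a filter on dim probe sets, other variance priors, a 1.5-fold limit, unlogged means and each array left out. Deviations of same-numbered samples correlated at -0.12, -0.12 and -0.0011.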

Additional observations from a re-analysis of the deposited data

How the results depend on the processing

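All 7 genes stayed higher with M1 protein under each alternative run on them, 70 gene and setting pairs with 0 reversals, of which 62 moved by less than the spread between replicates and 8 by more, 4 under median centring and 4 under quantile normalization. Where an array was left out, the direction was assured, since the groups did not overlap. A move smaller than that spread was then assured too, and the replicate block could move no difference. The pairs of those settings among the 62 were thus fixed in advance. Only median centring, quantile normalization and unlogged means could have given another outcome. The order of the genes was the same in 10 of 11 settings, quantile normalization being the exception given above. Among those 10, the replicate block, the filter on dim probe sets and median centring could not change the order. They left the differences as they were or raised all of them alike. The median log2 difference of the 7 was 1.68 with each array centred on its median, which raises all differences alike, and 1.55 to 1.65 with each array left out in turn, the lowest without control replicate 1. Over all probe sets, 7245 were called (2555 higher, 4690 lower), 5386 to 6763 with each array left out, and 2088 (790 higher, 1298 lower) when a change over 1.5-fold was also asked for, fewer by construction. Median centring gave 3578 higher and 3670 lower calls, and quantile normalization 3026 and 4035. A fit with a block for the replicate number called 5821 and the differences of the 7 genes were the same by construction. The correlations of same-numbered samples, none above 0, gave no sign that the numbers pair the samples. The mean over several probe sets of a gene gave no value, as each of the 7 genes had 1 in the authors' table. Whether unnamed probe sets also belong to these genes could not be seen.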
